A study of Arabidopsis thaliana with 38 samples.

Results

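The mitochondria-encoded genes of *Arabidopsis thaliana* are the rows whose gene ID begins with ATMG. They make up 122 of the 26925 genes listed for globular seeds, the same 122 of the 26925 listed for 24HAI endosperm, and 3 of the 640 listed for mature endosperm. By the names the tables and the study's gene list give them, 38 were placed in classes. These were 14 rows of complex I (nad), 1 of complex III (cob), 3 of complex IV (cox), 6 of ATP synthase (atp), 5 of cytochrome c maturation (ccm), 7 of ribosomal proteins (rpl and rps) and 2 of the intron maturase and the transport protein (matR and mttB). The other 84 are open reading frames (ORFs), and 64 of them have no annotated function.

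RNA-seq of *vel3-1*, a T-DNA insertion mutant in the Col-0 background, was compared with RNA-seq of Col-0 at 3 stages, with 3 libraries per genotype and stage. All plants set seed at 16 °C. Globular seeds were whole seeds with embryo, endosperm and seed coat, dissected 8 days after pollination and pooled from 3 to 5 siliques per replicate. Mature and 24HAI endosperm was tissue enriched from seeds imbibed for 1 h and 24 h, and it was extracted by another method than the globular seeds. The values are TPM, in which reads are scaled to the length of the gene and to the total of the library, so the depth behind each value is unknown. Libraries are numbered here as in the tables' headings, and for globular seeds those headings give the genotype but not which sample of it, so the numbers there are names.

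The level of *VEL3* (AT2G18870), the disrupted gene, was compared with the labels. In globular seeds it stood at 9.79, 8.30 and 13.0 TPM in the libraries labelled *vel3-1*, against 1.34, 1.99 and 2.23 TPM in Col-0 libraries, so it was higher where the mutant label stands. In 24HAI endosperm it stood at 0, 0.0770 and 0.160 TPM in the libraries labelled *vel3-1*, against 0 in all 3 Col-0 libraries. The mutant group is therefore called "the libraries labelled *vel3-1*" below, and every direction between genotypes rests on that label. Of 5 endosperm markers, only AT2G27380 was abundant in 24HAI libraries, at 17819 to 20368 TPM in the libraries labelled *vel3-1*, against 16077 to 20082 TPM in Col-0, and the other 4 lay between 0 and 1.55 TPM. The check of that tissue therefore rests on 1 gene, beside sums of 12.9 to 19.3 TPM for 5 seed coat markers. The 5 embryo markers summed to 20.5 to 23.3 TPM in 24HAI libraries labelled *vel3-1*, against 33.3 to 42.6 TPM in Col-0. Nearly all of that was AT5G59340, at 19.7 to 21.9 TPM where labelled *vel3-1*, against 31.9 to 41.0 TPM in Col-0. In globular libraries the seed coat markers summed to between 319 and 667 TPM.

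Globular libraries differed from each other in ways the genotype does not define. For 4212 nuclear genes that no 24HAI library lists above 0, the median was 1.43, 0.322 and 10.0 TPM in globular libraries 1, 2 and 3 labelled *vel3-1*, against 0.317, 0.376 and 0.613 TPM in Col-0. Library 3 labelled *vel3-1* therefore stood apart from the other 5, and library 1 stood above the remaining 4 by a smaller distance. Across the 26593 genes tested in globular seeds the median log2 difference between genotypes was itself 0.50, and differences at that stage are to be read against this shift. It was 0.14 without library 3 labelled *vel3-1* and 0.13 when genes averaging under 5 TPM were left out, so it rests largely on that library and on low genes. Other scalings moved it too, to 0.11 with median-ratio scaling and to -0.02 with quantile normalization.

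Plant mitochondria keep a small genome that codes for core subunits of the respiratory chain and ATP synthase, for parts of the cytochrome c assembly pathway and for some ribosomal proteins. All other subunits are encoded in the nucleus and imported. Several mitochondrial genes are split into pieces that are transcribed apart and joined by trans-splicing, which is why *nad1*, *nad2* and *nad5* each appear here as several rows. Plant mitochondrial transcripts are edited from C to U, and a poly(A) tail on them marks RNA for decay and does not stabilise it as in the cytosol. The ORFs of the Arabidopsis mitochondrion include pieces copied from other genomes, among them fragments of retroelements and of mitoviruses. Arabidopsis chromosome 2 also carries a large recent insertion of mitochondrial DNA beside its centromere, so many mitochondrial genes have a second copy in the nucleus.

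The chromosome 2 copies were compared with the mitochondrial genes by aligning RefSeq sequences of TAIR10.1. The mitochondrial sequence of that build is not the one in the files' TAIR10, so no mitochondrial coordinates are given, whereas the nuclear chromosomes are the same. Of 33 mitochondrial coding genes in RefSeq, 22 had every coding base aligned on chromosome 2, and for 16 of these no base differed and no gap was opened. The gene *atp9* codes for the ring subunit of ATP synthase, and *cob* for apocytochrome b of complex III. Their sequences are shown because the nuclear copy cannot be told from the mitochondrial gene by any letter. The whole coding sequence of *atp9*, 225 bases, is the same at chr2:3251856-3252080 on the minus strand, and the first 120 bases of *cob* are the same at chr2:3450863-3450982 on the plus strand.
atp9, mitochondrion and chromosome 2: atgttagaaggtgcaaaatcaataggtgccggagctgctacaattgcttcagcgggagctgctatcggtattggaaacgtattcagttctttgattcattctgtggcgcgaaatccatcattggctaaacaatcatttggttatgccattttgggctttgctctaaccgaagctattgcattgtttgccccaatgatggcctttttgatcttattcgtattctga
cob, mitochondrion and chromosome 2: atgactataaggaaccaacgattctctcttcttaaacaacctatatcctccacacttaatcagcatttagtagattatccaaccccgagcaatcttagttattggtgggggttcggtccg

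Other copies differ in a few letters. The next pair shows coding bases 14 to 93 of *ccmFN1*, a cytochrome c assembly gene listed as CCB382, beside its copy at chr2:3297903-3297982, with the base that differs in capitals. It is the only difference over the 1149 coding bases and lies at position 54, counted from the first base of the start codon. The last pair shows coding bases 122 to 241 of *matR*, the intron maturase, beside chr2:3402457-3402576, where 2 of the 5 bases that differ over its 1971 coding bases fall, again in capitals.
ccmFN1, mitochondrion: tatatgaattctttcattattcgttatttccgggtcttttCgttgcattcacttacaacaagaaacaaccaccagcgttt
ccmFN1, chromosome 2: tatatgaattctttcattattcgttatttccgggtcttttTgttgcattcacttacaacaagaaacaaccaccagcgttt
matR, mitochondrion: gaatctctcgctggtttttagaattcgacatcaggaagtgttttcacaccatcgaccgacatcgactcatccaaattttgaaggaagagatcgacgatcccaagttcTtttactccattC
matR, chromosome 2: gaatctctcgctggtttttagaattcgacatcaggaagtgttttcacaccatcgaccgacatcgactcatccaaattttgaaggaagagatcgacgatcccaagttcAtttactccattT

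Levels of the mitochondria-encoded genes differed widely between the stages. The 122 rows summed to 27898, 27090 and 19437 TPM in globular libraries labelled *vel3-1* and to 23471, 20162 and 26189 TPM in globular Col-0 libraries. In 24HAI endosperm they summed to 409, 493 and 374 TPM in the libraries labelled *vel3-1* and to 464, 544 and 416 TPM in Col-0. They were 2.34% to 3.37% of the summed TPM of all listed genes in globular libraries and 0.0381% to 0.0555% in 24HAI libraries. That sum was not the same in all libraries. Its nuclear rows came to between 713196 and 826569 TPM in globular libraries and between 978387 and 981056 TPM in 24HAI libraries. The genotypes overlapped at each stage. The stages differ in tissue, age, RNA extraction and table, so their levels stand side by side with no test.

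By mean over 6 libraries, 92 rows were higher in globular seeds and 30 in 24HAI endosperm. Of the 38 classed genes, 33 were higher in globular seeds, and the 5 others were COB, ATP1, ATP6-1, CCB256 and RPS7. Over the 122 rows the 2 means had a Spearman rho of 0.47, a description across genes that share libraries. Classed genes spanned a 25586-fold range of means in globular seeds and a 59.3-fold range in 24HAI endosperm. The rows listed at 0 in all 6 libraries numbered 6 in globular seeds and 5 in 24HAI endosperm.

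**Figure D1:**
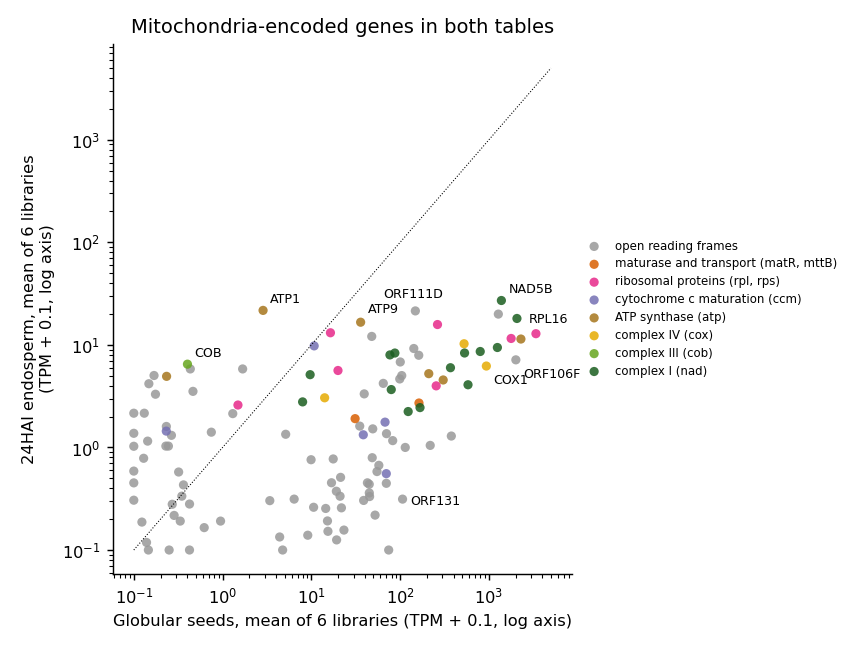
Mean TPM of each of the 122 mitochondria-encoded rows in globular seeds (x axis) and in 24HAI endosperm (y axis), both log axes after adding 0.1 TPM, coloured by class, with the line of equal level dotted. Most rows lie under the line (92 of 122), and COB and ATP1 lie above it.

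Complex I passes electrons from NADH into the chain, and its 14 rows had a median mean level of 268 TPM in globular seeds and 6.89 TPM in 24HAI endosperm. NAD4L, a small membrane subunit, averaged 2169 ± 938 TPM in globular libraries labelled *vel3-1* and 1969 ± 314 TPM in Col-0 (SD, n = 3 each, as for all values of this form below). NAD5B, a piece of *nad5*, averaged 1459 ± 693 TPM in the libraries labelled *vel3-1* and 1305 ± 79.5 TPM in Col-0. NAD1B, a piece of *nad1*, averaged 1453 ± 430 TPM in the libraries labelled *vel3-1* and 1039 ± 159 TPM in Col-0. At the other end stood NAD3 at 9.59 TPM and NAD6 at 7.87 TPM over the 6 globular libraries.

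COB, the only mitochondrial subunit of complex III, stood at 0.153, 0.464 and 0.308 TPM in globular libraries labelled *vel3-1*, against 0.292, 0.243 and 0.354 TPM in Col-0. In 24HAI endosperm it stood at 3.97, 6.19 and 4.67 TPM in the libraries labelled *vel3-1*, against 5.79, 12.5 and 5.20 TPM in Col-0. It was thus among the lowest classed rows in globular seeds and of middle rank after imbibition, and the genotypes overlapped at both stages.

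Complex IV reduces oxygen to water. COX1, its catalytic subunit, stood at 941, 1045 and 608 TPM in globular libraries labelled *vel3-1*, against 970, 834 and 1217 TPM in Col-0. COX2 averaged 581 ± 232 TPM in the libraries labelled *vel3-1* and 470 ± 72.6 TPM in Col-0. COX3 averaged 17.5 ± 9.10 TPM in the libraries labelled *vel3-1* and 10.5 ± 1.39 TPM in Col-0, far below the other subunits of its complex. In 24HAI endosperm COX1 averaged 6.12 TPM, COX2 10.2 TPM and COX3 2.95 TPM over 6 libraries.

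The 6 rows of ATP synthase spread over several orders of magnitude in globular seeds. ORF25, annotated as an ATP synthase subunit, averaged 2247 ± 386 TPM in globular libraries labelled *vel3-1* and 2341 ± 384 TPM in Col-0. ATP8 averaged 350 ± 152 TPM in the libraries labelled *vel3-1* and 260 ± 43.4 TPM in Col-0. ATP6-2, a proton channel subunit, averaged 213 ± 48.5 TPM in the libraries labelled *vel3-1* and 207 ± 22.1 TPM in Col-0. ATP1, the alpha subunit of the catalytic head, averaged 2.91 ± 0.121 TPM in the libraries labelled *vel3-1* and 2.61 ± 0.813 TPM in Col-0. ATP6-1 averaged 0.134 TPM over the 6 globular libraries. The 2 *atp6* genes in RefSeq share 761 coding bases without a difference, so by that sequence reads from the stretch cannot be assigned to either. In 24HAI endosperm the 6 rows lay between 4.45 TPM (ATP8) and 21.6 TPM (ATP1).

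The ribosomal protein rows included the most abundant member in globular seeds. RPL16, of the large subunit, stood at 3512, 3510 and 1693 TPM in globular libraries labelled *vel3-1*, against 3742, 3590 and 4271 TPM in Col-0. ATMG00090, annotated as a structural constituent of the ribosome, stood at 1874, 1862 and 936 TPM, against 1996, 1815 and 2195 TPM in Col-0. In both, library 3 labelled *vel3-1* was the low library. RPL5 stood at 211, 755 and 117 TPM in the libraries labelled *vel3-1*, against 210, 93.5 and 194 TPM in Col-0, so library 2 was the high one. The 7 rows made up 21.2%, 23.7% and 15.4% of summed mitochondrial TPM in the libraries labelled *vel3-1*, against 26.7%, 28.5% and 26.7% in Col-0.

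Of the cytochrome c assembly genes, CCB206 (*ccmB*) averaged 91.3 ± 65.0 TPM in globular libraries labelled *vel3-1* and 48.2 ± 7.18 TPM in Col-0. CCB203 (*ccmFN2*) stood at 73.2, 103 and 65.5 TPM in the libraries labelled *vel3-1*, against 64.2, 44.0 and 54.7 TPM in Col-0. CCB382 (*ccmFN1*) averaged 44.1 ± 2.71 TPM in the libraries labelled *vel3-1* and 32.7 ± 2.85 TPM in Col-0. In both the groups did not overlap, which in this direction held for 20% of all tested genes. Their log2 differences of 0.55 and 0.42 lay near the median of 0.50 over all tested genes. The nuclear copy of CCB203, AT2G07768, was called higher in the globular test described below, with a log2 difference of 1.37 (SE 0.24), while CCB203 was not. MATR averaged 177 ± 67.8 TPM in the libraries labelled *vel3-1* and 149 ± 23.9 TPM in Col-0. ORFX (*mttB*), a transport protein gene, averaged 29.9 ± 5.62 TPM in the libraries labelled *vel3-1* and 32.1 ± 6.99 TPM in Col-0.

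The ORFs as a whole were low, with a median mean level of 10.2 TPM in globular seeds and 0.485 TPM in 24HAI endosperm, but a few reached the level of the respiratory chain. ORF106F averaged 2139 ± 864 TPM in globular libraries labelled *vel3-1* and 1884 ± 377 TPM in Col-0. ORF149 averaged 1193 ± 283 TPM in the libraries labelled *vel3-1* and 1361 ± 201 TPM in Col-0. ORF107A averaged 385 ± 32.6 TPM in the libraries labelled *vel3-1* and 370 ± 154 TPM in Col-0. ORF145C averaged 227 ± 46.7 TPM in the libraries labelled *vel3-1* and 210 ± 26.5 TPM in Col-0. None of these has an annotated function. ORF275 averaged 201 ± 55.1 TPM in the libraries labelled *vel3-1* and 123 ± 11.9 TPM in Col-0. In 24HAI endosperm the 5 highest ORFs by mean over 6 libraries were ORF111D at 21.3 TPM, ORF149 at 19.9 TPM, ORF107H (10.4 to 14.3 TPM in single libraries), ORF240A at 9.12 TPM and ORF275 at 7.82 TPM. Only ORF149 and ORF275 were among the 5 highest at both stages.

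The low rows in globular seeds were compared with the chromosome 2 copies described above. Each coding sequence was read in windows of 100 bases, and a window counted as found only in that gene when no other place in the genome held the same letters. For the 4 members with all windows of this kind (NAD9, CCB206, NAD4L and COX1) the median of the mean levels in globular seeds was 867 TPM. It was 209 TPM for the 8 members with some such windows, among them RPL16, COX2 and MATR, and 12.3 TPM for the 14 members with none, among them COB, COX3, ATP1 and ATP9. In 24HAI endosperm the same medians were 7.32, 3.25 and 5.96 TPM. How reads that match several places were counted is not given in the sources used here, and the part of this in the levels was not tested.

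The members and the nuclear genes annotated on their copies could be set side by side for 15 pairs. In globular seeds the share of the pair's mean TPM listed at the mitochondrial row ran between 0.681% and 99.7%, with 3 pairs below 10% and 5 above 90%. In 24HAI endosperm it ran between 31.2% and 72.5%, and all 15 pairs lay between 25% and 75%. ATP1 held the lowest share in globular seeds. Its copy AT2G07698, at chr2:3362505-3364028, has the same 1524 bases and stood at 427, 597 and 209 TPM in globular libraries labelled *vel3-1*, against 410, 343 and 428 TPM in Col-0. In those libraries ATP1 itself stood at 2.81, 3.04 and 2.87 TPM where labelled *vel3-1*, against 2.76, 1.73 and 3.34 TPM in Col-0. COB held 1.67% of its pair with AT2G07727 and COX3 4.08% of its pair with AT2G07687. ATP8 held 99.7% of its pair with AT2G07707, although its copy has no differing base either. A low value of a row with an identical copy in globular seeds is therefore the value listed for that row. How reads were divided between such a row and its copy is not known. Identity was found in RefSeq sequence and was not checked in the mitochondrial sequence the reads were aligned to.

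**Figure D2:**
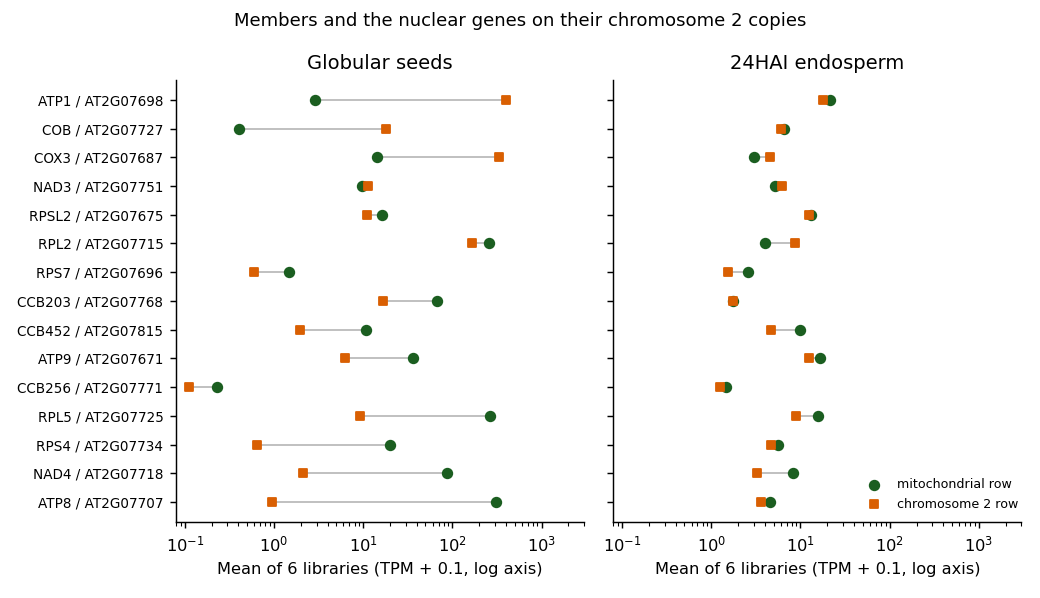
Mean TPM over 6 libraries (log axis, after adding 0.1 TPM) of 15 mitochondria-encoded members, as circles, and of the nuclear gene on the chromosome 2 copy of each, as squares, in globular seeds (left) and 24HAI endosperm (right). The 2 rows of a pair lie far apart for many pairs in globular seeds, where members hold 0.681% to 99.7% of the pair, and close together in 24HAI endosperm, where they hold 31.2% to 72.5%.

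Some rows carry the same values, beside those at 0 in all 6 libraries. In 24HAI endosperm ORF139A and ORF139B were equal in all 6 libraries, and ORF106A, ORF106G and the nuclear gene AT2G07701 were equal to each other, as were ORF102 and AT3G60760, which were at 0 in 5 of 6 libraries. Such rows hold 1 measurement each. Apart from rows at 0 in all libraries, no member shared all its values with another row in globular seeds.

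The first comparison of genotypes asked which mitochondria-encoded genes differed in globular seeds. Most ORFs that could be tested were called higher in the libraries labelled *vel3-1* than in Col-0. Most genes of the respiratory chain, ATP synthase and the ribosome were not called. For the most abundant rows the error of the fit was too wide for a 2-fold difference to pass. With library 2 as the only library labelled *vel3-1*, the median log2 difference was 0.51 over 50 ORFs and 0.50 over 35 classed rows. Limma on log2(TPM + 1), with the prior variance following expression level and Benjamini-Hochberg adjustment over all tested genes, called a gene at an adjusted p under 0.05 and a difference of at least 2-fold. Of the 122 members, 86 had a mean of at least 1 TPM and were tested, 35 were called higher and 1 lower. The call rates over all 26593 tested genes were 1.71% higher and 0.369% lower. Among the members' 86, the median log2 difference was 0.73, beside 0.50 over all genes. The 36 untested members, 33 ORFs with COB, ATP6-1 and CCB256, had means of at most 0.849 TPM. In bulk RNA, fewer cells of a type and less RNA per cell cannot be told apart.

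In this fit the prior degrees of freedom were infinite, so each gene was given the variance expected at its level and its own spread did not enter the p. Without the trend 0 members were called in limma, while 33 had an unadjusted p under 0.05, beside 50 with the trend. The smallest adjusted p of a member was then 0.107. That fit called 0 of all 26593 genes higher and 0 lower. An exact permutation test of 3 against 3 libraries cannot give a two-sided p below 0.1, so for a single gene it says only whether the groups overlap. Of the tested members, 41 had all 3 libraries labelled *vel3-1* above all 3 Col-0 libraries and 2 had them all below, beside 20% and 3.97% of all tested genes.

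By class, 33 of 51 tested ORFs were called higher and 0 lower, with a median log2 difference of 1.50. Of 22 tested rows of the respiratory chain and ATP synthase, 1 was called higher (NAD6) and 1 lower (ATP9), with a median of 0.02. Of 7 ribosomal rows 0 were called and 1 had an unadjusted p under 0.05 in limma (0 without the trend), with a median of 0.11. Of 4 tested cytochrome c assembly rows, CCB452 was called higher, and the median was 0.62. MATR and ORFX had log2 differences of 0.18 and -0.10 and were not called. The 35 tested classed rows together had a median of 0.05, below the 0.50 of all genes, but this order turned without library 3 labelled *vel3-1*, where it was 0.30 beside 0.14. The ORF median was 1.12 in that setting.

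**Figure D3:**
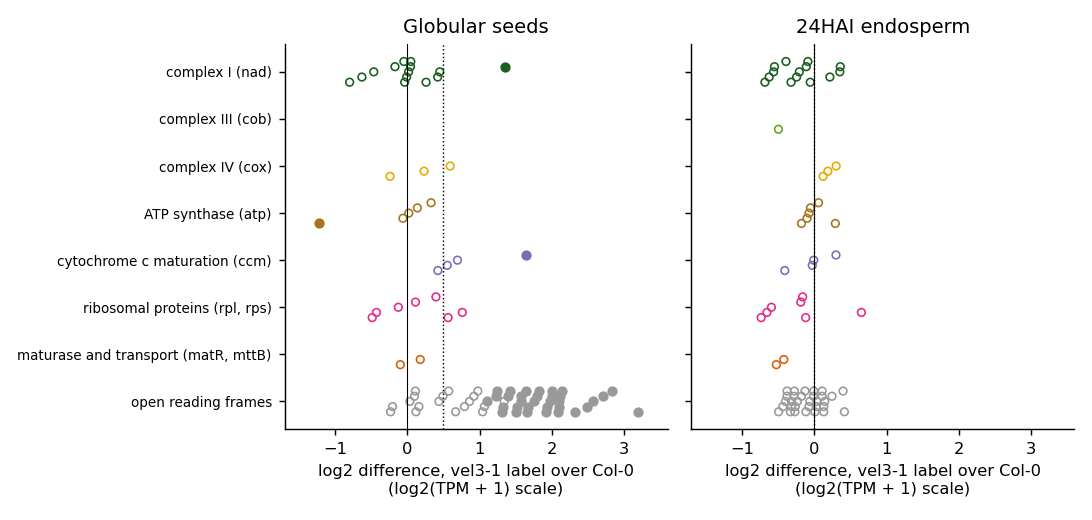
Log2 difference (libraries labelled *vel3-1* over Col-0, on the log2(TPM + 1) scale) of each tested member by class in globular seeds (left) and 24HAI endosperm (right). Filled points passed adjusted p under 0.05 and 2-fold, open points did not, the solid line is 0 and the dotted line is the median of all tested genes (0.50 in globular seeds). The 33 filled ORFs lie above 1 in globular seeds, and no point is filled in 24HAI endosperm.

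On the log2(TPM + 1) scale the first of the called ORFs by size was ORF131, which has no annotated function. It stood at 238, 92.0 and 251 TPM in the libraries labelled *vel3-1*, against 19.7, 23.4 and 13.7 TPM in Col-0, a log2 difference of 3.19 (SE 0.19, limma adjusted p = 8.59e-62, and 0.139 without the trend). ORF122C, likewise without annotation, stood at 156, 46.3 and 198 TPM, against 16.6, 15.3 and 13.2 TPM in Col-0, a log2 difference of 2.83 (SE 0.19). In both genes every library labelled *vel3-1* lay well above every Col-0 library, and library 2 was the lowest of its group.

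ORF251, annotated as a mitovirus RNA-dependent RNA polymerase, stood at 45.0, 12.3 and 45.7 TPM in the libraries labelled *vel3-1*, against 3.56, 4.26 and 3.32 TPM in Col-0, a log2 difference of 2.70 (SE 0.27). Mitoviruses are RNA viruses that replicate in mitochondria, and fragments of them are found in plant mitochondrial genomes. ORF187 stood at 7.90, 6.71 and 9.53 TPM, against 0.978, 0.407 and 0.247 TPM in Col-0. It passed the filter of 1 TPM only through the libraries labelled *vel3-1*, as its Col-0 mean was 0.544 TPM, so these values stand as a description, and its call was lost without library 1 labelled *vel3-1*. Of the 35 members called higher, 2 had a Col-0 mean under 1 TPM, the other being ORF107E. The libraries of ORF187 labelled *vel3-1* lay closer together than those of the other leading ORFs, and its Col-0 libraries lay near the lower limit of the values. In library 3 labelled *vel3-1* its 9.53 TPM lay below the median of 10.0 TPM for the 4212 nuclear genes silent in 24HAI endosperm. The closeness of its libraries is therefore not to be read as agreement.

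ORF105A stood at 87.9, 13.3 and 85.4 TPM in the libraries labelled *vel3-1*, against 9.54, 5.60 and 8.11 TPM in Col-0, a log2 difference of 2.48 (SE 0.21). Library 2 was near the Col-0 level here, and the call was lost without library 3. ORF107B stood at 80.7, 14.0 and 104 TPM, against 11.7, 7.80 and 13.8 TPM in Col-0, its library 2 was only just above the highest Col-0 library, and its call too was lost without library 3. ORF315, annotated with a domain of the ATP synthase ring subunit, stood at 145, 54.6 and 158 TPM, against 19.5, 19.9 and 23.1 TPM in Col-0, a log2 difference of 2.32 (SE 0.18). The plot of TPM by library shows these genes beside COX1 and RPL16.

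ORF110A, annotated with a fragment of the large subunit of Rubisco, a chloroplast protein, stood at 65.0, 66.7 and 79.9 TPM in the libraries labelled *vel3-1*, against 25.9, 26.6 and 30.4 TPM in Col-0. Its log2 difference of 1.32 (SE 0.19, limma adjusted p = 1.6e-10) came with a small spread in both groups. ORF107H, high at both stages, stood at 82.2, 51.6 and 68.3 TPM, against 27.5, 20.8 and 36.3 TPM in Col-0. The other called ORFs had log2 differences between 1.11 and 2.13.

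ORFs that carry fragments of retroelements or viral polymerases numbered 12, a grouping by annotation made after the values were seen. Of 8 that were tested, 7 were called higher, with a median log2 difference of 1.99. The one not called was ORF107C, also annotated as a mitovirus polymerase, at 139, 155 and 42.7 TPM in the libraries labelled *vel3-1*, against 131, 94.3 and 122 TPM in Col-0. ORF111A, annotated as related to Gag-Pol, was called although its groups overlapped, at 31.2, 6.82 and 82.7 TPM, against 6.97, 6.84 and 4.57 TPM in Col-0. Of the 39 tested ORFs with no annotated function, 24 were called higher, with a median of 1.42.

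The ORFs that were not called included most of the abundant ones. Of 11 ORFs with a mean of at least 100 TPM, 2 were called, ORF131 and ORF294. ORF106F had a log2 difference of 0.11 (SE 1.42), ORF149 of -0.20 (SE 0.96), ORF107A of 0.16 (SE 0.37) and ORF145C of 0.10 (SE 0.28). ORF275 had 0.67 (SE 0.24), with groups that did not overlap. The fit gives abundant genes a wide error, so that the 8 members with a mean of at least 1000 TPM had standard errors between 0.92 and 2.38, and a 2-fold difference could not have passed for them.

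ATP9 was the only member called lower. It stood at 26.1, 15.9 and 21.7 TPM in the libraries labelled *vel3-1*, against 40.2, 55.7 and 55.2 TPM in Col-0, a log2 difference of -1.22 (SE 0.19, limma adjusted p = 1.48e-08, and 0.362 without the trend). All 3 libraries labelled *vel3-1* lay below all 3 Col-0 libraries. The direction is opposite to the shift of all genes. Its copy with the same 225 bases, AT2G07671, had a log2 difference of -0.55 (SE 0.39) and was not called. Of the ORFs annotated with a ring subunit of ATP synthase, ORF315 was called higher (above), and ORF262, at 141, 116 and 104 TPM in the libraries labelled *vel3-1*, against 89.3, 72.4 and 79.2 TPM in Col-0, was not.

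NAD6 stood at 8.09, 12.9 and 13.6 TPM in the libraries labelled *vel3-1*, against 6.25, 1.58 and 4.85 TPM in Col-0, a log2 difference of 1.36 (SE 0.36, limma adjusted p = 0.00751, and 0.5 without the trend). Its call was lost without library 2 or library 3 of either genotype and with median-ratio scaling, among other settings. CCB452 (*ccmFC*, a haem lyase component of cytochrome c assembly) stood at 21.7, 13.1 and 15.4 TPM, against 4.41, 4.69 and 4.62 TPM in Col-0, a log2 difference of 1.64 (SE 0.31, limma adjusted p = 6.6e-06, and 0.145 without the trend). In both genes the groups did not overlap. In library 3 labelled *vel3-1* their 13.6 and 15.4 TPM stood beside a median of 10.0 TPM for the 4212 nuclear genes silent in 24HAI endosperm. The part of this in their differences was not tested. Both have an identical copy on chromosome 2, and the copy of CCB452, AT2G07815, stood at 0.594, 5.47 and 2.16 TPM in the libraries labelled *vel3-1*, against 2.49, 0.302 and 0 TPM in Col-0, with overlap.

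The rows of the respiratory chain gave no common direction. The log2 differences of the 14 complex I rows ran between -0.80 (NAD3, SE 0.31) and 1.36 (NAD6), with a median of 0.00. COX1, COX2 and COX3 had -0.24, 0.23 and 0.59 (SE 0.73, 0.46 and 0.25). ATP1, ATP6-2, ATP8 and ORF25 had 0.14, 0.02, 0.33 and -0.06. Since a p above the threshold does not show equal levels, the summed TPM of the 24 rows is given too. It was 13978, 13988 and 8478 in the libraries labelled *vel3-1*, against 11534, 10060 and 13072 in Col-0, with overlap. The summed TPM of the 84 ORFs was 7573, 6200 and 7555 in the libraries labelled *vel3-1*, against 5340, 4088 and 5770 in Col-0, with no overlap. As a share of summed mitochondrial TPM the ORFs took 27.1%, 22.9% and 38.9%, against between 20.3% and 22.7% in the 3 Col-0 libraries.

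The libraries labelled *vel3-1* did not contribute evenly to the ORF difference. Of the 35 members called higher, the highest library was library 3 for 30 and library 1 for 5. Library 2 was the lowest of its group for 33, but it lay above all 3 Col-0 libraries for 33 as well. The median log2 value over the Col-0 mean, over the 51 tested ORFs, was 1.24, 0.53 and 2.62 in libraries 1, 2 and 3 labelled *vel3-1*. The same median over the 22 respiratory and ATP synthase rows was 0.18, 0.48 and -0.48. Over all tested genes it was 0.17, 0.10 and 1.16.

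The order of the libraries was the same for the ORFs and for the 4212 nuclear genes silent in 24HAI endosperm, with library 3 highest and library 2 lowest in the group labelled *vel3-1*. The median TPM of the 84 ORFs was 13.3, 6.37 and 30.8 in the libraries labelled *vel3-1*, against 3.29, 2.25 and 3.61 in Col-0. The corresponding medians of the 4212 nuclear genes, given above, were near the Col-0 level in library 2. The summed embryo markers followed the same order, at 14.9, 7.41 and 41.6 TPM in the libraries labelled *vel3-1*, against 5.97, 10.2 and 11.1 TPM in Col-0. In library 3 each of the 5 embryo markers stood between 5.46 and 9.89 TPM, below that library's median of 10.0 TPM for the silent nuclear genes. Their sum there is thus no measure of embryo tissue. The summed endosperm markers were 233, 236 and 164 TPM in the libraries labelled *vel3-1*, against 86.6, 95.3 and 86.7 TPM in Col-0. Most of that difference was *PHE1* (AT1G65330), an imprinted MADS-box gene, at 148, 166 and 74.99 TPM in the libraries labelled *vel3-1*, against 21.3, 27.5 and 20.0 TPM in Col-0. AT2G27380 lay the other way, at 18.9, 6.34 and 26.3 TPM in the libraries labelled *vel3-1*, against 27.8, 26.8 and 33.9 TPM in Col-0, while the 4 others were higher in all libraries labelled *vel3-1* than in any Col-0 library. Of those, AT5G60440 stood at 9.27 TPM in library 3 labelled *vel3-1*, below the same median of 10.0 TPM. AT1G02580 stood at 14.2 TPM there, beside 5.32 and 4.40 TPM in libraries 1 and 2. The seed coat markers summed to 536, 667 and 319 TPM where labelled *vel3-1*, against 503, 516 and 532 TPM in Col-0. The part of these in the ORF difference was not tested.

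**Figure D4:**
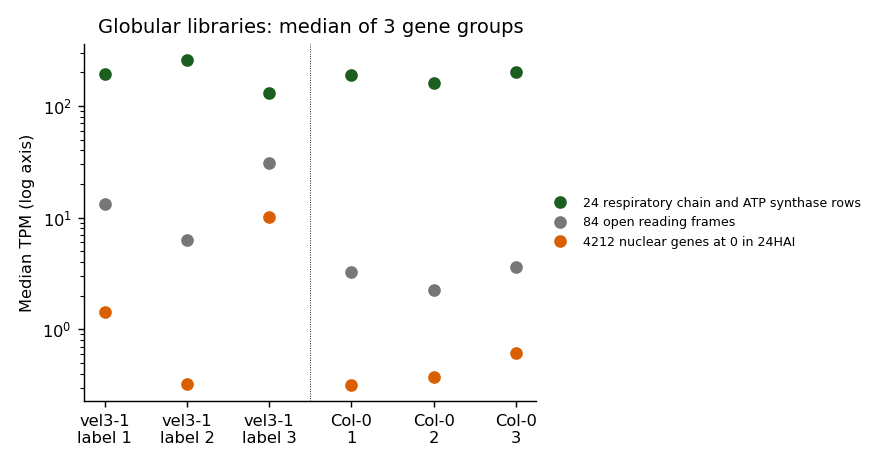
Median TPM (log axis) in each globular library of 24 respiratory chain and ATP synthase rows, 84 ORFs and 4212 nuclear genes listed at 0 by every 24HAI library. The ORFs and the nuclear genes are highest in library 3 labelled *vel3-1*, where the respiratory rows are lowest (131 TPM), and in library 2 the ORFs (6.37 TPM) remain above every Col-0 library while the nuclear genes (0.322 TPM) do not.

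Calls were therefore also made without the libraries in doubt. Without library 3 labelled *vel3-1*, 12 members were called higher, 11 of them ORFs, and ATP9 was called lower, beside 2.14% of all 19639 tested genes called higher and 0.647% lower. With library 2 as the only library labelled *vel3-1*, assumed to vary like the Col-0 libraries, 12 were called higher and 2 lower, beside 2.77% and 2.14% of all 18405 tested genes. Those called higher both here and with all libraries were ORF131, ORF122C, ORF251, ORF315, ORF110A, ORF159, CCB452 and ORF187. ORF187 passed the filter of 1 TPM here only through library 2, so its values stand as a description. Called higher here alone were RPL5, NAD2A, RPS4 and COX3, and ATP9 and RPSL2 were called lower. The median log2 difference in this setting was 0.51 over 50 ORFs and 0.50 over 35 classed rows, beside 0.19 over all genes. When the median of the silent nuclear genes was subtracted from each library, 0 members were called either way in limma, as were 0 of all 26593 genes, and the ORF median was 1.38.

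The second comparison asked the same of 24HAI endosperm. Of 122 members, 68 had a mean of at least 1 TPM, 37 of them classed genes and 31 ORFs, and 0 were called by limma at 2-fold and an adjusted p under 0.05. The call rates over all 15918 tested genes were 1.7% higher and 0.697% lower. The limma p before adjustment was under 0.05 for 13 members, 3 of them higher, and for 16 without the trend. The median log2 difference was -0.12, beside -0.00 over all genes. The groups did not overlap for 4 members that were higher and 10 that were lower, beside 12.5% and 14.5% of all tested genes. The median standard error of a member was 0.19 on the log2 scale.

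With no fold minimum, 2 members passed in limma, both higher, beside 4.66% of all tested genes higher and 2.94% lower. ORF240A, with no annotated function, stood at 10.2, 10.7 and 10.9 TPM in the libraries labelled *vel3-1*, against 7.34, 7.87 and 7.79 TPM in Col-0, a log2 difference of 0.42 (SE 0.10, limma adjusted p = 0.0368). RPSL2 (*rps12*), a ribosomal protein of the small subunit, stood at 15.3, 20.1 and 13.2 TPM, against 8.28 to 11.2 TPM in the 3 Col-0 libraries, a log2 difference of 0.65 (SE 0.16, limma adjusted p = 0.0494, and 0.0639 without the trend). Its copy with the same 378 bases, AT2G07675, stood at 15.9, 17.9 and 13.1 TPM in the libraries labelled *vel3-1*, against 9.96, 9.84 and 7.23 TPM in Col-0, a log2 difference of 0.73 (SE 0.15, limma adjusted p = 0.0253). The pair thus moved together, and its reads cannot be told apart by the RefSeq sequence.

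The other ribosomal rows had log2 differences below 0. RPL16 stood at 8.48, 15.5 and 5.54 TPM in the libraries labelled *vel3-1*, against 16.3, 21.5 and 9.27 TPM in Col-0, and RPL5 at 7.60, 18.6 and 11.5 TPM where labelled *vel3-1*, against 19.3, 23.6 and 13.5 TPM in Col-0, both with overlap and not called. ATMG00090 had the most negative difference of all members, -0.74 (SE 0.26), and was not called. Of the complex I rows, NAD2B stood at 2.02, 2.22 and 3.31 TPM in the libraries labelled *vel3-1*, against 4.76, 5.32 and 3.77 TPM in Col-0, a log2 difference of -0.68 (SE 0.18, limma adjusted p = 0.0554). NAD4 and NAD5C also had groups that did not overlap, with -0.56 (SE 0.20) and -0.62 (SE 0.20), and were not called. NAD1B did not overlap in the other direction, averaging 10.6 ± 0.705 TPM in the libraries labelled *vel3-1* and 8.11 ± 1.43 TPM in Col-0.

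ATP1 stood at 23.4, 27.9 and 20.5 TPM in 24HAI libraries labelled *vel3-1*, against 20.2, 20.5 and 17.2 TPM in Col-0, a log2 difference of 0.29 (SE 0.13) that was not called. ATP9 stood at 15.9, 19.4 and 13.0 TPM in the libraries labelled *vel3-1*, against 20.5, 16.6 and 13.9 TPM in Col-0, a log2 difference of -0.07 (SE 0.17) with overlap. The cox rows had differences of 0.12, 0.30 and 0.19 for COX1, COX2 and COX3 and COB had -0.50 (SE 0.29), none called. MATR and ORFX had -0.42 (SE 0.18) and -0.52 (SE 0.15). ORFX stood at 1.05, 1.61 and 1.27 TPM in the libraries labelled *vel3-1*, against 2.39, 2.16 and 2.38 TPM in Col-0, without overlap.

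Of the 35 members called higher in globular seeds, 27 had a mean under 1 TPM in 24HAI endosperm and could not be tested there. ORF131 stood at 0.143, 0.420 and 0 TPM in 24HAI libraries labelled *vel3-1*, against 0.432, 0.142 and 0.144 TPM in Col-0, and ORF122C was listed at 0 in all 6 libraries. The summed ORF share of mitochondrial TPM was 38.2%, 34.3% and 39.2% in the libraries labelled *vel3-1*, against 37.2%, 32.8% and 38.6% in Col-0, with overlap. The chloroplast-encoded genes, in contrast, summed to 171, 361 and 174 TPM in 24HAI libraries labelled *vel3-1*, against 625, 860 and 565 TPM in Col-0, with no overlap.

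The genotype differences of the 2 stages were compared by the interaction term of a limma model of 12 libraries, over genes that passed the filter of 1 TPM at both stages. Of 53 members, 2 were called at an adjusted p under 0.05, beside 1.01% of all 15813 tested genes, and 13 had an unadjusted p under 0.05. ORF110A had a log2 difference 1.81 higher in globular seeds than in 24HAI endosperm (SE 0.23, limma adjusted p = 0.00272). In 24HAI endosperm it stood at 1.36, 0.999 and 0.691 TPM in the libraries labelled *vel3-1*, against 2.06, 1.52 and 1.88 TPM in Col-0, the reverse order of globular seeds. That 24HAI difference, -0.49 (SE 0.17), was not called. CCB452 had a difference of 1.65 between the stages (SE 0.25, limma adjusted p = 0.00848). Its 24HAI values were 10.3, 9.54 and 9.10 TPM in the libraries labelled *vel3-1*, against 9.53, 10.9 and 8.75 TPM in Col-0, and the groups overlapped. For ORF105A the difference between stages was 2.86 (SE 0.75) and for ORF315 2.29 (SE 0.50), and both missed the threshold, at limma adjusted p = 0.104 and 0.0506.

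Most respiratory complexes combine these subunits with nuclear-encoded partners. Lists of nuclear partners held subunits of complexes I to IV and ATP synthase, the alternative oxidases and NAD(P)H dehydrogenases, and factors of mitochondrial RNA synthesis and processing, with 3 genes left out whose reference annotation names another function. Of 85 tested in globular seeds 0 were called, with a median log2 difference of 0.03, and of 79 tested in 24HAI endosperm 0 were called, with a median of 0.21. The alternative respiration genes, whose products bypass complexes I, III and IV, had a median of 0.86 over 10 genes in globular seeds, and none passed. That median rests on library 3 labelled *vel3-1*, where the 10 genes lay between 10.2 and 17.8 TPM. Their median was 2.76, 1.76 and 11.8 TPM in the libraries labelled *vel3-1*, against 1.92, 1.64 and 2.47 TPM in Col-0. With no fold minimum 2 partners passed in globular seeds, both higher, beside 2.21% of all tested genes higher and 1.01% lower. They were *SDH3-1* and *SDH3-2*, which code for a membrane subunit of complex II and may share reads, with log2 differences of 0.82 and 0.83 (SE 0.19 and 0.18, limma adjusted p = 0.00097 and 0.000398). The nuclear complex I, complex IV and ATP synthase genes had medians of -0.06, -0.08 and -0.12 there. In 24HAI endosperm the 9 nuclear ATP synthase genes had log2 differences between 0.18 and 0.45, all above 0, and none was called. With no fold minimum 5 partners passed there as higher and 1 as lower, beside 4.66% and 2.94% of all tested genes. Among them the alternative oxidase genes *AOX1A* and *AOX2* differed in direction, at 0.88 (SE 0.17, limma adjusted p = 0.0179) and -0.66 (SE 0.09, limma adjusted p = 0.00397).

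In mature endosperm 3 members were listed, in a table of 640 genes only. ORF107B stood at 0.749, 0 and 0 TPM in the libraries labelled *vel3-1*, against 0, 0 and 0.373 TPM in Col-0. RPSL2 stood at 0.321, 1.64 and 0 TPM where labelled *vel3-1*, against 0.163, 0.780 and 0 TPM in Col-0, and ATP1 at 0.239, 0.371 and 0.113 TPM where labelled *vel3-1*, against 0.121, 0.116 and 0.119 TPM in Col-0. All 3 overlapped between the genotypes, and all were below the level of either other stage except ORF107B, whose 24HAI values were likewise near 0.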

How the data were processed

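RNA-seq was made from poly(A) RNA of 18 libraries, 3 per genotype and stage. The authors trimmed reads with cutadapt 1.9.1, aligned them to TAIR10 with STAR 2.5 and counted sense reads with featureCounts, and deposited TPM values per gene. How TPM were computed and how multi-mapping reads were counted is not given in the sources used here. TPM keep no depth, so depth per library, its precision and counting intervals are unknown. Each number of a column heading is a name, and 0 columns of other samples were used. Other assays of the series were not analysed here.

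Globular and 24HAI tables were tested separately, by genotype, with limma 3.58.1 in R 4.3.3 on log2(TPM + 1), with a trend, after removing genes that averaged under 1 TPM. P-values were adjusted by Benjamini-Hochberg over all tested genes, with a threshold of 0.05 and 2-fold. Fold changes on this scale understate changes of low genes. The interaction of genotype and stage was tested without a fold minimum. P-values rest on the spread between libraries, which the study calls biological replicates. In the globular fit with the trend that spread was taken from genes of like level, and a gene's own spread did not enter. Values were handled in Python 3.11.15 with pandas 2.3.3 and numpy 2.4.6 and plotted with matplotlib 3.10.9.

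Copies were sought with blastn 2.17.0 in RefSeq sequences of TAIR10.1 at 90% identity or more, by DNA and not, as first intended, by protein. Members were matched to RefSeq by name for 34 rows, and 26 of these have a RefSeq gene of their own. The members and lists were chosen with earlier results of these data known. A rule on level and change within each class named 38 members. The other members named (among them NAD2A, NAD2B, NAD3, NAD4, NAD5C, NAD6, NAD9, RPS4, RPS7, CCB256, ORF107C, ORF107E, ORF111A, ORF159, ORF262, ORF294 and ORF315) the single nuclear markers and partners, and the groups of ORFs by annotation were chosen after their values were seen. Alternatives were another pseudocount, filter, scaling or variance model, a replicate block and leaving out libraries. Subtracting the median of silent nuclear genes is called background subtraction.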

Additional observations from a re-analysis of the deposited data

Results flagged for a closer look

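ORF110A differed in its response between the stages. Its log2 genotype difference was 1.81 higher in globular seeds than in 24HAI endosperm (SE 0.23, limma interaction term, adjusted p = 0.00272), as all 3 libraries labelled *vel3-1* were above the Col-0 libraries in globular seeds and below them in 24HAI endosperm. Its 24HAI values lay between 0.691 and 2.06 TPM, near the filter of 1 TPM, and its difference there was not called. Its call in globular seeds was lost with background subtraction, with median-ratio scaling and without the trend. CCB452 differed by 1.65 in the same interaction term (SE 0.25, limma adjusted p = 0.00848), with groups that did not overlap in globular seeds and did in 24HAI endosperm. Stage is tied to tissue, RNA extraction and table here, and these cannot be told apart.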

How the results depend on the processing

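The median ORF difference in globular seeds was above 0 in every alternative run, but the number of calls was not stable. The 35 members called higher became 0 with background subtraction and 0 in limma without the trend, 2 with no filter on low values and 2 with quantile normalization. Over all genes the 454 called higher became 0, 0, 96 and 193 in the same order. The members were 8 on TPM rescaled to nuclear genes without library 3 labelled *vel3-1* (345 over all genes), and 12 without libraries 1 and 3, the last 2 settings chosen after seeing the data. Leaving out single libraries gave 12 (without library 3 labelled *vel3-1*) to 39 (without library 2). The 1 member called lower became 0 with background subtraction, 0 without the trend, 0 with no filter, 2 with median-ratio scaling and 2 without libraries 1 and 3, and 1 to 2 when single libraries were left out. The median difference of 0.73 was 0.35 with median-ratio scaling, 0.41 with no filter and 0.64 to 0.91 when single libraries were left out. The log2 difference of RPSL2, globular, which was 0.11 and not called, was -1.02 (limma adjusted p = 0.00691) without libraries 1 and 3, where library 2 alone stands for its group. In 24HAI endosperm 2 members passed with no fold minimum, and 0 to 0 were called when single libraries were left out, with medians of -0.26 to -0.04. The 2 interaction calls became 5 with no filter, 5 with quantile normalization, 5 with the replicate block and 14 without libraries 1 and 3, and 2 to 10 when single libraries were left out (8 without library 2 and 10 without library 3 labelled *vel3-1*). CCB452 lost its interaction call with background subtraction, median-ratio scaling and quantile normalization. ORF110A kept its interaction call in 21 of 21 settings, with limma adjusted p between 0.000653 and 0.0174. The cause was not tested, apart from the fewer libraries of the settings that leave some out. Same-numbered libraries correlated by 0.069, 0.178 and 0.314 in globular seeds and by -0.390, 0.022 and 0.218 in 24HAI endosperm. Differently numbered libraries correlated by -0.277 to 0.187 in globular seeds and by -0.378 to 0.325 in 24HAI endosperm. The highest value belonged to a same-numbered pair in globular seeds and to a differently numbered pair in 24HAI endosperm. Whether the numbers mark pairs was not tested. With the replicate block 34 members were called higher and 1 lower in globular seeds. Depth is unknown, so what low values can show is not known.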
